A study of Homo sapiens with 16 samples.

Results

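The course of BRD9-deleted G401 cells from day 1 to day 5 was followed in RNA sequencing libraries. The members were chosen by their labels: the 2 BRD9 KO libraries of day 5 were compared with the 2 BRD9 KO libraries of day 1, which makes 4 of the 16 libraries of the time course. G401 is an established human line derived from a kidney rhabdoid tumor, and it lacks SMARCB1. BRD9 KO cells had BRD9 targeted by CRISPR-Cas9. The LacZ cells received a guide against LacZ, a bacterial gene with no copy in human cells, and their 2 libraries of day 5 and 2 of day 1 served as the measure of how a control culture moved over the same days. Each of the 8 groups (2 guides on days 1, 2, 3 and 5) had 2 libraries of total RNA from cells grown in DMEM with serum. All groups therefore share the loss of SMARCB1, the nuclease and the culture conditions, and differ in the guide and the day. The paper's general methods give lentiviral Cas9 and guides, selected with blasticidin and puromycin. Of the 2 guides, only that against BRD9 has a target in human cells. Cutting of the genome and loss of BRD9 therefore cannot be told apart here. The deleted cells were an edited culture and not a clone. The sources used here do not say from which event the days were counted, what share of the cells was edited, or whether the 2 libraries of a group came from separate cultures.

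BRD9 is a bromodomain protein that binds acetylated histones and belongs to a form of the SWI/SNF chromatin remodelling complex, which uses ATP to move nucleosomes and so opens promoters and enhancers. That form assembles without SMARCB1, and rhabdoid tumor cells, which have lost SMARCB1, depend on it for growth. A culture that is seeded and grown for several days also changes without any deletion, as it uses nutrients, becomes denser and alters its matrix and lipid supply, so each change in the deleted cells is set beside the same step in LacZ cells.

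Totals per library ranged from 9185808 to 16560669 expected counts for BRD9 KO and from 11252814 to 15430060 for LacZ cells, and reads of mitochondrially encoded genes took 5.68 to 6.69% of the 8 libraries of days 1 and 5. SMARCB1 had 0 counts in 15 libraries and 2 counts in the other. VIM, the mesenchymal filament gene, had 13618 to 32080 counts in every library. The leukocyte gene PTPRC had 0 counts, and EPCAM and CDH1, which define epithelial cells, had at most 6. The 2 libraries of a group differed by only 1.05 to 1.15 times counting noise, so the p-values measure a spread between samples that may be technical, and very small fold changes pass where a gene is abundant. In bulk RNA, fewer cells of a kind and less RNA per cell cannot be told apart.

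The targeted gene itself (ENSG00000028310.13, chromosome 5) did not fall further between day 1 and day 5. In the deleted cells BRD9 RNA measured 16.7 and 17.1 CPM (counts scaled to the library total and TMM factor) at day 1, then 25.9 and 22.5 at day 5. LacZ cells had 47.2 and 49.5 CPM at day 1, then 62.4 and 60.6 at day 5. The BRD9 KO libraries lay below every LacZ library at both ends of the course, and BRD9 rose in both cultures. The rise was 0.50 on the log2 scale in BRD9 KO cells (SE 0.09, edgeR adjusted p = 0.000246) and 0.35 in LacZ cells (SE 0.06, edgeR adjusted p = 0.000213), and the difference between these steps, 0.15, did not pass the test (SE 0.11, edgeR adjusted p = 0.511). RNA level does not measure the protein or the edited share, since transcripts with a disrupted reading frame are counted too.

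Between day 1 and day 5 the deleted cells changed broadly but mostly by small amounts. Calls required an adjusted p under 0.05 (edgeR's quasi-likelihood test, Benjamini-Hochberg over all 15027 genes tested). In BRD9 KO cells 5270 genes were called, 35.1% of those tested, of which 2637 were higher (17.5%) and 2633 lower (17.5%). Only 384 of them differed by at least 1 on the log2 scale, 171 higher and 213 lower, and the median size among the called genes was 0.31. In LacZ cells the same step called 3847 genes, 25.6% of those tested, with 1904 higher (12.7%) and 1943 lower (12.9%), and 135 of at least 1. With both the tool and the unit changed, limma on log2(TPM + 1) called 3396 genes in BRD9 KO cells, 2131 higher and 1265 lower (62.8% higher, against 2637 higher and 2633 lower by edgeR), and 1811 in LacZ cells, 1092 higher and 719 lower (60.3% against 49.5%). By mean level, a minority of the called genes moved the same way in every interval, while their medians moved 1 way throughout. Against day 1 the median was 0.15, 0.24 and 0.29 (log2) on days 2, 3 and 5 for genes called higher. For genes called lower it was -0.19, -0.27 and -0.32. In the deleted cells 30.2% of genes were called between days 1 and 2, 30.6% between days 2 and 3 and 20.9% between days 3 and 5 (10.4% higher and 10.5% lower), and 54% changed over the 4 days by the F-test. Of the genes higher on day 5, 575 rose in each of the 3 intervals by their mean level (21.8%) and 1398 had their highest mean on day 5. Of the genes lower on day 5, 687 fell in each interval by their mean level (26.1%) and 1459 had their lowest mean on day 5.

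The step of the deleted cells was then set beside the LacZ step, which shares no library with it. Over all genes tested the 2 steps correlated at Pearson's r = 0.28 and Spearman's rho = 0.51, and over the 6298 genes with a mean log2 CPM above 5 at 0.75 and 0.75; genes within a culture are not independent, so these describe the cultures. The genes called in both steps numbered 2754, which is 52.3% of those called in BRD9 KO and 71.6% of those called in LacZ cells. They had the same direction in 2681 cases and opposite directions in 73. A further contrast, the BRD9 KO step minus the LacZ step, asked whether the steps differed. This difference was called for 1070 genes (7.12% of those tested), 502 higher in the deleted cells (3.34%) and 568 lower (3.78%), and 75 of them differed by at least 1 on the log2 scale. DESeq2 called 633 differences, 632 of them among the 1070 in the same direction, and limma on log2(TPM + 1) called 315, 288 of them among the 1070. With no filter on low counts edgeR called 1237, of which 707 were higher (57.2%, against 46.9%).

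These calls sort the genes into classes, in which a difference that was not called is not shown to be absent. Genes called in both steps in 1 direction with no called difference, referred to as shared, numbered 2290 (1164 higher and 1126 lower), with a median size of 0.30 in BRD9 KO and 0.26 in LacZ cells. A larger step of the same direction in the deleted cells was found for 365 genes (122 higher and 243 lower), with a median size of 0.57 against 0.24. A step called in BRD9 KO and not in LacZ cells, with the difference called, was found for 477 genes (249 higher and 228 lower). The reverse, a step called in LacZ cells and not in the deleted cells, was found for 121 genes, and a larger LacZ step in the same direction for 26. For another 2039 genes the BRD9 KO step was called but neither the LacZ step nor the difference, so these could not be placed as shared or as particular to the deleted cells.

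**Figure D1:**
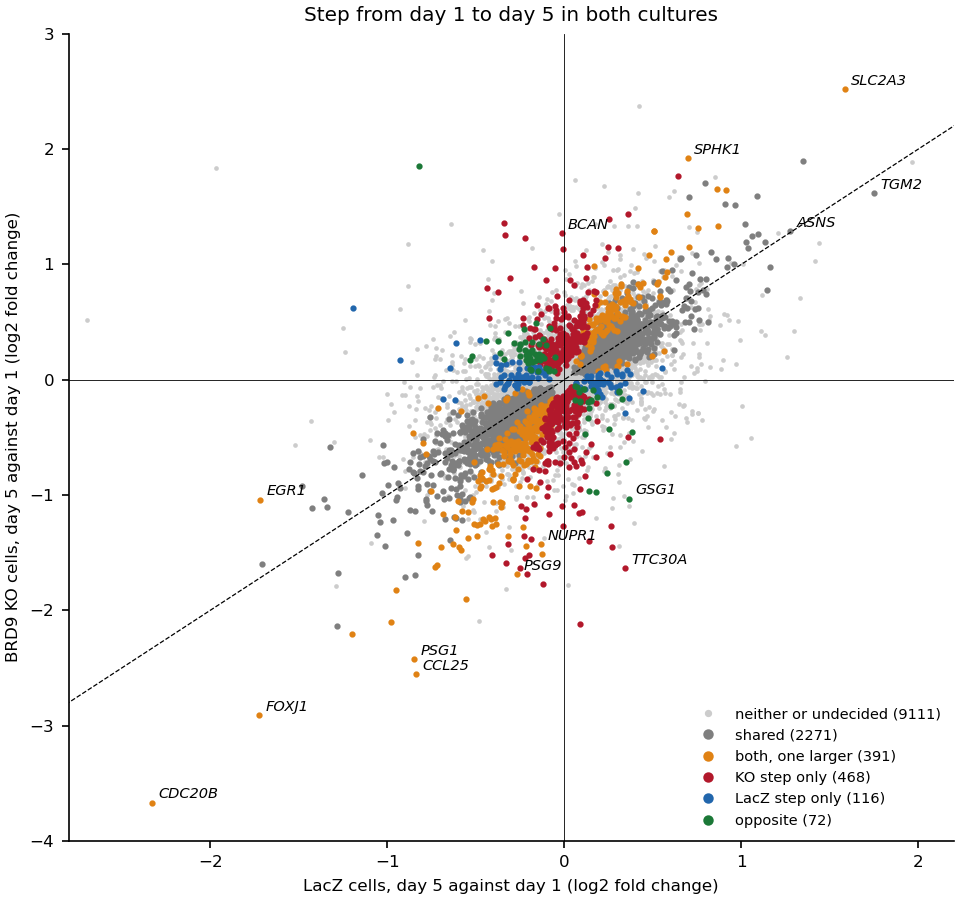
Each point is a gene with a mean log2 CPM above 1 (12429 genes), with the log2 fold change from day 1 to day 5 in LacZ cells on the horizontal axis and in BRD9 KO cells on the vertical axis, coloured by the class of its calls; the dashed line marks equal steps. The 2271 shared genes follow the dashed line, and the 391 genes called in both cultures with 1 larger step lie mostly farther from 0 on the BRD9 KO axis. The definition of the classes fixed that shared genes lie near the line.

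On the days between, the classes took different courses. Shared genes that were higher on day 5 had a median gain of 0.21 on day 2 in BRD9 KO cells and 0.21 in LacZ cells, and of 0.27 and 0.25 on day 5, so most of their rise was present by day 2. Genes higher in the deleted cells alone had a median gain of 0.06 on day 2, 0.21 on day 3 and 0.35 on day 5, against -0.08, 0.01 and -0.01 in LacZ cells. Genes lower in the deleted cells alone had a median of -0.16, -0.23 and -0.36 on these days, against -0.03, -0.02 and -0.01. Days 1 and 5 chose these classes. The values of days 2 and 3 are set against the same day 1 libraries, so that choice fixed them in part.

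**Figure D2:**
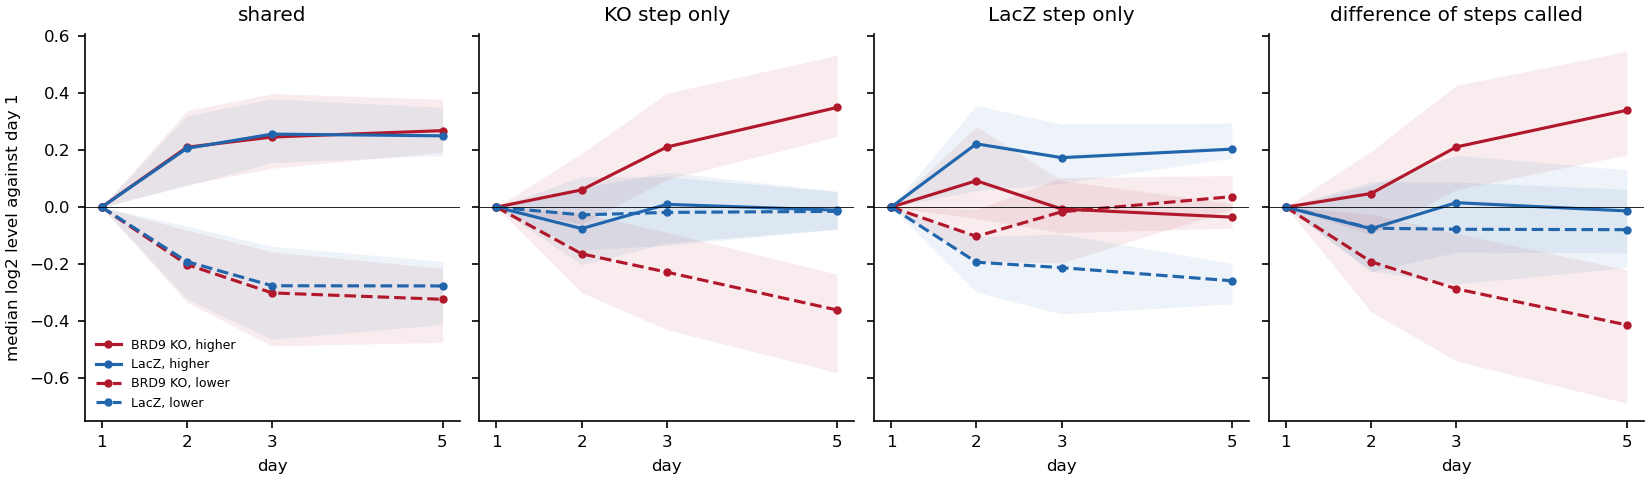
The median log2 level against day 1 is drawn on days 1, 2, 3 and 5 for BRD9 KO cells (red) and LacZ cells (blue), with solid lines for genes higher and dashed lines for genes lower on day 5 and bands between the quartiles of the genes. The 2 cultures lie on top of each other among shared genes, and separate over the days where the BRD9 KO step alone was called. The definition of the classes fixed this for day 5.

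Days 2 and 3 share no library with the comparison of day 5 and day 1, so signs are read in other libraries. The calls are not fully separate, since all libraries entered the same estimate of each gene's spread. The shares are set beside all genes and not beside genes of like abundance. Of the genes higher in the BRD9 KO step, 982 (37.2%) were called higher and 337 (12.8%) lower between days 2 and 3 in BRD9 KO cells, beside 15.3% in each direction for all genes. Of the genes lower in that step, 926 (35.2%) were called lower and 315 (12%) higher. The difference between the cultures was also read in this way. Of the 502 genes with a higher difference, 26 (5.18%) were called higher and 2 lower in the difference of the steps from day 2 to day 3, beside 0.26% of all genes called higher, and 82.3% had the same sign. Of the 568 with a lower difference, 54 (9.51%) were called lower and 0 higher, beside 0.526% of all genes called lower, and 81.7% had the same sign. The rule that chose these genes fixed that their gap would change from day 1 to day 5, so the levels of those days are a description. The median level of the genes with a higher difference, BRD9 KO against LacZ, was -0.04 on day 1, 0.06 on day 2, 0.16 on day 3 and 0.29 on day 5 (log2), and that of the genes with a lower difference 0.03, -0.07, -0.17 and -0.28. Over all genes tested the median absolute gap was 0.07 on day 1 and 0.12 on day 5, and it was larger on day 5 for 62.6% of them.

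The genes named for their rise in the deleted cells were of several kinds. SLC2A3, a high-affinity glucose transporter, went from 5.19 and 4.46 CPM to 27.8 and 26.9 in the deleted cells, and from 4.28 and 5.12 to 13.8 and 14.6 in LacZ cells. Both cultures rose without overlap between the days, and the deleted cells ended above the LacZ cells. The rise was 2.52 (log2, SE 0.12, edgeR adjusted p = 1.3e-11) against 1.59, with a difference of 0.93 (SE 0.19, edgeR adjusted p = 0.00415). That difference missed the threshold without replicate 2 of BRD9 KO day 1 (0.80, edgeR adjusted p = 0.0517) and without replicate 2 of LacZ day 1 (0.79, edgeR adjusted p = 0.0529). SPHK1, which makes the lipid signal sphingosine-1-phosphate, rose from 8.95 and 6.76 to 27.4 and 30.2 CPM in BRD9 KO cells and from 6.34 and 6.49 to 10.0 and 10.9 in LacZ cells. Its steps were 1.92 and 0.70, and the difference was 1.22 (SE 0.19, edgeR adjusted p = 0.000269). TUBB2A, a beta-tubulin, rose from 64.0 and 68.3 to 209.9 and 208 CPM against 66.5 and 71.2 to 127 and 123. The day 5 libraries of the deleted cells stood apart from all others, and the difference of steps was 0.79 (SE 0.07, edgeR adjusted p = 2.21e-07).

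TGM2, a transglutaminase that crosslinks matrix proteins, had a large rise that the LacZ cells shared. TGM2 went from 144 and 147 CPM to 449 and 449 in BRD9 KO cells, and from 139.9 and 127 to 439.9 and 459 in LacZ cells. The 2 cultures took the same path through days 2 and 3. The steps were 1.62 (SE 0.03) and 1.75 (SE 0.03), and the difference of -0.13 was not called (edgeR adjusted p = 0.126), although it passed without replicate 1 of LacZ day 1 (-0.20, edgeR adjusted p = 0.0107). Among the highest fold changes at low levels, COL7A1, the anchoring fibril collagen, went from 2.21 and 1.62 to 5.90 and 6.27 CPM, and WNT4, a signalling ligand of kidney development, from 1.55 and 2.10 to 5.54 and 5.96. Neither difference from the LacZ step was called (0.92 and 1.20, edgeR adjusted p = 0.109 and 0.0657). INA, a neuronal filament gene, went from 2.21 and 2.64 to 8.18 and 8.58 CPM. The difference of INA, 1.12 (edgeR adjusted p = 0.0457), missed the threshold whenever any of the 8 libraries was left out, with adjusted p between 0.0508 and 0.278.

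**Figure D3:**
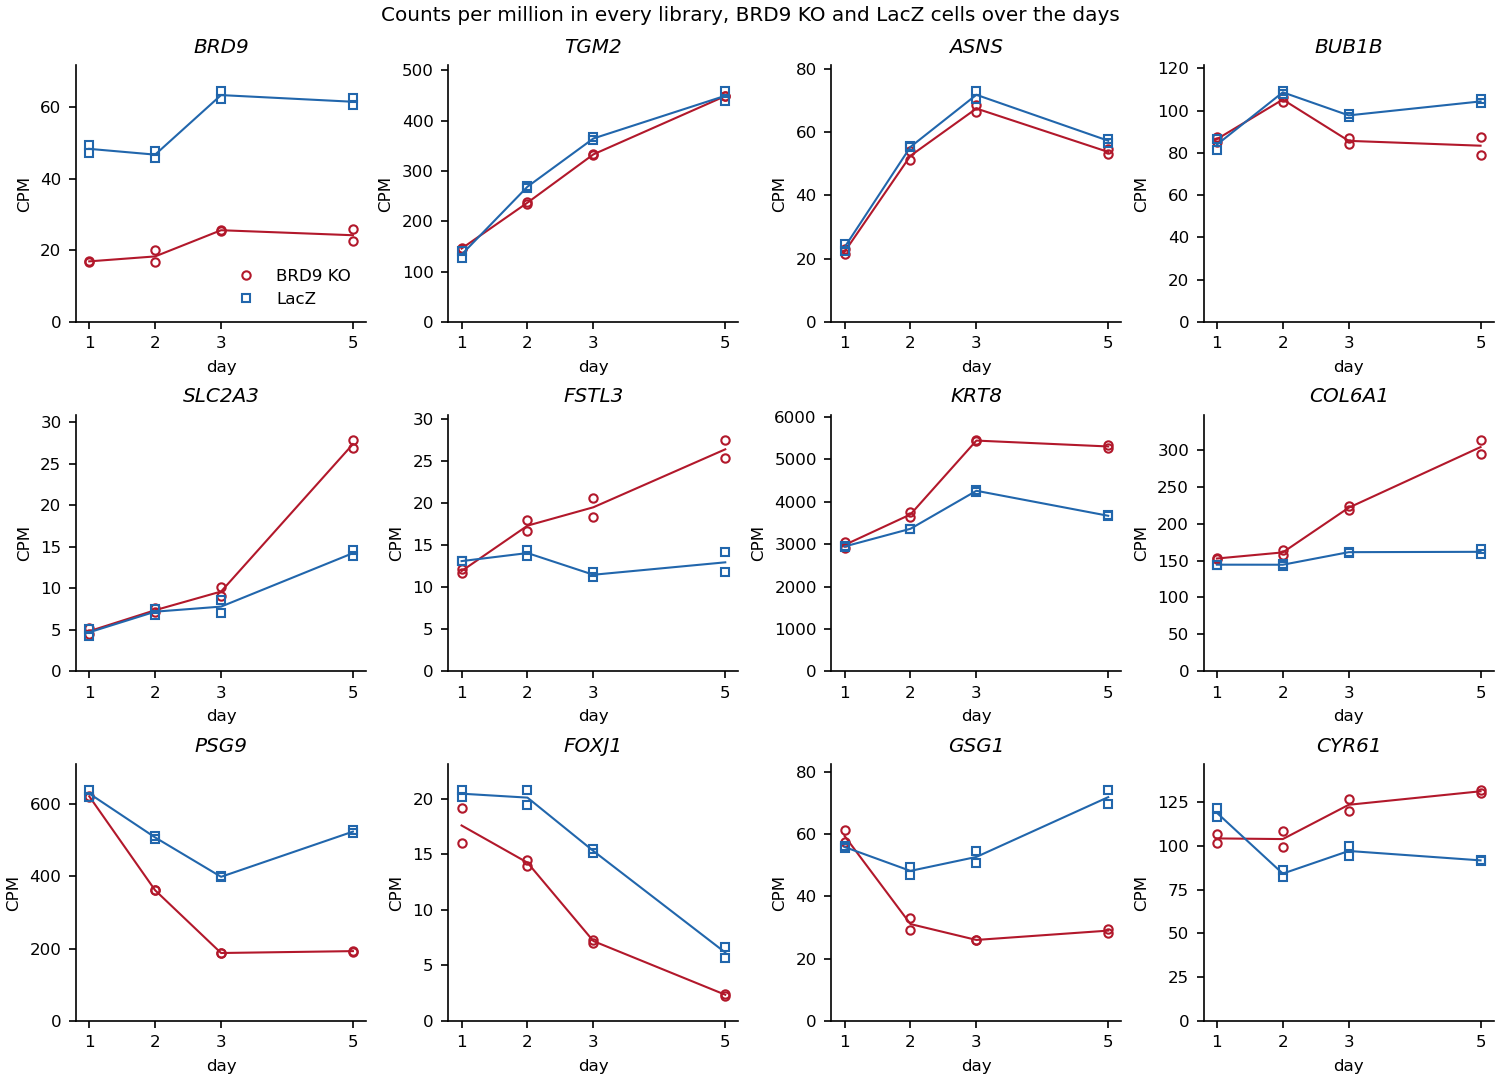
CPM in each library on days 1, 2, 3 and 5 are shown for 12 genes, with circles for BRD9 KO and squares for LacZ libraries and lines through the means. TGM2 and ASNS take the same course in both cultures, while SLC2A3, FSTL3, KRT8 and COL6A1 end higher and PSG9, FOXJ1 and GSG1 lower in the deleted cells.

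Several of the genes named for their fall are known from cilia, the projections of the cell surface. CDC20B, which takes part in forming cells with many cilia, stood at 21.2 and 23.9 CPM on day 1 and 1.64 and 1.89 on day 5 in BRD9 KO cells, and at 27.5 and 22.9 and then 4.76 and 5.26 in LacZ cells. FOXJ1, the transcription factor of motile ciliogenesis, fell from 16 and 19.2 to 2.27 and 2.43 CPM and in LacZ cells from 20.2 and 20.8 to 6.62 and 5.70. The genes fell in both cultures, and fell farther in the deleted cells. The differences of steps were -1.34 for CDC20B (SE 0.25, edgeR adjusted p = 0.00196) and -1.19 for FOXJ1 (SE 0.19, edgeR adjusted p = 0.00054). RSPH4A, a radial spoke protein of the ciliary axoneme, went from 5.30 and 5.07 to 1.27 and 1.10 CPM, a fall in both cultures whose difference was not called (-0.85, edgeR adjusted p = 0.204). TTC30A, a protein of transport along cilia, fell from 4.64 and 4.26 to 1.45 and 1.40 CPM in the deleted cells alone, while its LacZ libraries stood at 3.36 and 3.87 and at 4.99 and 4.19. Its difference was -1.97 (SE 0.33, edgeR adjusted p = 0.000773). No list of cilia genes had been drawn up, so no count over such genes is given.

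Others named for their fall encode secreted or signalling proteins. RGS5, a brake on G protein signalling known from pericytes, fell from 113 and 114 to 29.2 and 31.0 CPM, and from 108 and 116 to 75.7 and 77.1 in LacZ cells. The difference of -1.35 (SE 0.07, edgeR adjusted p = 3.87e-10) was also called from day 2 to day 3 (-0.37, edgeR adjusted p = 0.023). THBS1, thrombospondin-1, a matrix protein that restrains vessel growth, fell from 17.5 and 19.0 to 3.63 and 4.20 CPM against 18.9 and 21.2 to 7.74 and 9.89. CCL25, a chemokine, fell from 8.07 and 8.66 to 1.36 and 1.46 CPM, with most of the fall present on day 2 at 1.72 and 1.08, while in LacZ cells it was at 2.51 and 2.30 on day 2 and back at 6.10 and 5.34 on day 5. The day 5 libraries of the 2 cultures did not overlap for any of the 3 genes. LGI1, a secreted protein of the nervous system, fell by 1.83 (SE 0.07) against 0.95 in LacZ cells.

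Among genes whose rise was called in the deleted cells only, several stayed level in LacZ cells. FSTL3, a secreted inhibitor of activin, went from 11.7 and 12.1 CPM on day 1 through 16.7 and 18.0 on day 2 to 27.4 and 25.3 on day 5, while its 8 LacZ libraries ranged from 11.1 to 14.4. The BRD9 KO step was 1.13 (SE 0.09), the LacZ step -0.01 (SE 0.10) and the difference 1.14 (SE 0.14, edgeR adjusted p = 2.53e-05). BCAN, brevican, a proteoglycan of brain matrix, went from 6.63 and 7.24 to 17.2 and 16.7 CPM against 7.87 and 7.48 to 7.44 and 7.75. IL4R, the receptor chain for interleukin 4, went from 8.51 and 6.63 to 15.5 and 13.6 CPM against 8.79 and 8.26 to 7.89 and 8.55. In both genes the day 5 libraries of the deleted cells exceeded all other libraries of days 1 and 5, with differences of 1.29 for BCAN (edgeR adjusted p = 9.62e-05) and 1.02 for IL4R (edgeR adjusted p = 0.0019). BATF3, a transcription factor of the AP-1 type, rose from 1.77 and 2.23 to 4.91 and 4.87 CPM; its difference of 1.59 (edgeR adjusted p = 0.00749) missed the threshold without replicate 1 of LacZ day 1 (1.34, edgeR adjusted p = 0.052). In the opposite direction VIT, vitrin, a matrix protein, fell from 6.30 and 5.95 to 2.18 and 2.25 CPM against 4.59 and 4.20 to 4.91 and 5.70 in LacZ cells, a difference of -1.72 (SE 0.27, edgeR adjusted p = 0.000338).

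Named groups of genes were described by how many of their members were called in each step, beside the shares of all genes given above. Those were 17.5% higher and 17.5% lower in the BRD9 KO step and 12.7% and 12.9% in the LacZ step. For the difference they were 3.34% and 3.78%. Abundant genes were called more often. Of the 6298 genes with a mean log2 CPM above 5, the BRD9 KO step called 3374 and the LacZ step 2673. A count near these shares describes no trait of its list. For all genes the medians of the BRD9 KO step, the LacZ step and their difference were 0.01, -0.00 and 0.00 on the log2 scale. The medians of the lists set their size beside that of all genes, and small differences such as those of ribosomal and mitotic genes were called for fewer members when a library was left out, as given beside them.

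**Figure D4:**
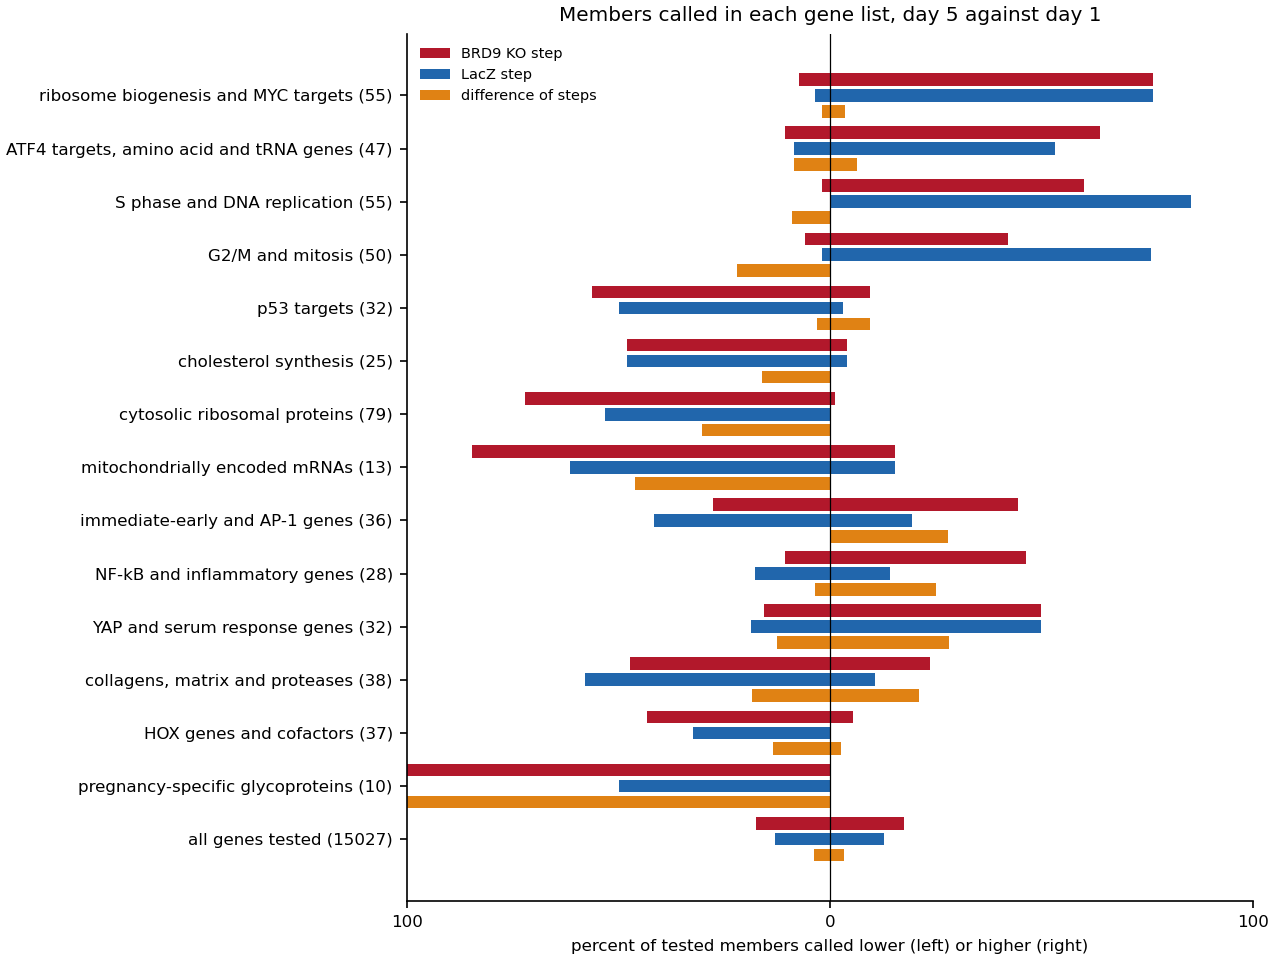
Bars give the percent of the tested members of 14 gene lists and of all genes that were called lower (left) or higher (right) in the BRD9 KO step (red), the LacZ step (blue) and the difference of the steps (orange). The pregnancy-specific glycoproteins reach 10 of 10 lower in the BRD9 KO step and in the difference.

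The pregnancy-specific glycoproteins, secreted proteins of the placenta encoded in a cluster on chromosome 19, fell as a family. All 10 tested members were lower in the BRD9 KO step, 5 in the LacZ step, and 10 in the difference, with medians of -1.61, -0.23 and -1.35. In the deleted cells their summed level was 1259 and 1263 CPM at day 1, 694 and 700.3 on day 2, 427 and 434 on day 3 and 471 and 478 on day 5. In LacZ cells it was 1274 and 1283, then 968 and 985, 781 and 773, and 1036 and 1058. The cultures began at nearly the same level and both fell to day 3, after which the LacZ cells regained much of the loss and the deleted cells little of it. PSG9 fell from 623 and 621 to 194 and 192 CPM, a step of -1.69 (SE 0.02) against -0.27 in LacZ cells. Its difference was called from day 2 to day 3 as well (-0.60, edgeR adjusted p = 3.38e-09). PSG1 fell from 123 and 125 to 23.3 and 23.1 CPM, with a difference of -1.58 (SE 0.07, edgeR adjusted p = 1.43e-11). PSG4 had the smallest difference of the members named here, -0.46 (SE 0.05, edgeR adjusted p = 1.87e-06). These genes are near-identical copies, so reads may have been divided among them and the family's sum is firmer than a member's value.

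Most genes of the amino acid response that were called rose in both cultures. This response runs through the transcription factor ATF4, which is translated when amino acids are short and induces amino acid synthesis, uptake and tRNA charging. Of 47 tested genes, 30 were higher and 5 lower in the BRD9 KO step and 25 higher and 4 lower in the LacZ step, with medians of 0.25 and 0.19, while the difference was higher for 3 and lower for 4 and 21 members were shared. ASNS, asparagine synthetase, stood at 23.0 and 21.3 CPM on day 1, 66.2 and 68.7 on day 3 and 54.5 and 52.9 on day 5 in the deleted cells, and at 22.5 and 24.7, 73.0 and 70.6, and 57.9 and 56.7 in LacZ cells. Both cultures peaked on day 3, and the steps of 1.29 and 1.28 differed by 0.01 (SE 0.09, edgeR adjusted p = 0.984). ATF4 itself rose from 131 and 131 to 216 and 216 CPM, against 147 and 147 to 212 and 215. ATF4 thus stood lower in the deleted cells on day 1 and near the LacZ level on day 5. Its difference of 0.18 (edgeR adjusted p = 0.02) missed the threshold in 7 of the 8 fits that left out a library, with adjusted p of 0.0504 to 0.0892, and held only without replicate 2 of LacZ day 5. CEBPB, a transcription factor that acts with ATF4, rose from 37.7 and 39.4 to 62.1 and 59.5 CPM against 38.6 and 44 to 45.6 and 48.0. The difference for CEBPB was 0.48 (edgeR adjusted p = 0.00781), and 0.37 without replicate 2 of LacZ day 1 (edgeR adjusted p = 0.0745). SESN2, a stress gene of the same list, fell in both cultures by 0.43 and 0.37. DDIT4, another member, was among the 4 with a lower difference (-0.60). It fell in both cultures and farther in the deleted cells.

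The composite element TTGCATCA, to which C/EBP and ATF factors bind together, was looked for in the promoters of this list. The letters were searched on both strands of RefSeq promoters of GRCh38.p14 from 250 bases before to 50 after the start. They were present in 7 of 37 promoters of the list (18.9%), beside 0.489% of the 9816 protein-coding genes tested that had a promoter and 0.923% of all 27305 promoters in the table. Windows of 30 bases around the match, in capitals, are shown for 4 aminoacyl-tRNA synthetase genes, because these enzymes charge the tRNAs and rose in both cultures. MARS and TARS were chosen after their values were seen. The windows lie at chr11:3057407-3057436 on the minus strand for CARS, chr12:57488053-57488082 on the plus strand for MARS, chr5:33440956-33440985 on the plus strand for TARS and chr18:57621804-57621833 on the minus strand for NARS, where the match is on the opposite strand.
CARS: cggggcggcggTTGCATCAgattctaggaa
MARS: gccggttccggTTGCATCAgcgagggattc
TARS: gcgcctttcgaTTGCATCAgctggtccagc
NARS: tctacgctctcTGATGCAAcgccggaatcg
A match describes the letters and does not show binding. The list was drawn up to hold ATF4 targets, so the share of 18.9% describes the list and not the steps of the cultures. CARS rose by 0.87 in BRD9 KO and 0.76 in LacZ cells, MARS by 0.38 and 0.37, TARS by 0.34 and 0.28, and NARS by 0.19 and 0.19. The differences between the cultures were not called for any of the 4 (edgeR adjusted p = 0.534, 0.985, 0.553 and 0.975).

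Most genes that build ribosomes rose, while most genes for the ribosome's own proteins fell, in both cultures. Of 55 tested genes of ribosome biogenesis and MYC targets, 42 were higher and 4 lower in the BRD9 KO step, and 42 higher and 2 lower in the LacZ step, with medians of 0.25 and 0.23. UTP20, a factor that processes the small subunit's RNA, rose from 101 and 101 to 139.7 and 140.2 CPM against 98.8 and 102 to 135 and 130. Of the 79 cytosolic ribosomal protein genes, 57 were lower and 1 higher in the BRD9 KO step and 42 lower and 0 higher in the LacZ step, and 24 had a lower difference. Their medians were -0.14, -0.07 and -0.06, so the family's change was small for each gene but of 1 direction. The count of 24 fell to between 13 and 22 when a library was left out, with 13 without replicate 2 of BRD9 KO day 1, replicate 1 of LacZ day 1 or replicate 1 of BRD9 KO day 5 and 14 without replicate 2 of LacZ day 5, and limma on log2(TPM + 1) called 3. RPS19, a small-subunit protein, went from 959 and 966 to 764 and 773 CPM against 947 and 934 to 849.8 and 824, a difference of -0.16 (SE 0.03, edgeR adjusted p = 0.000662). Of the 13 mRNAs encoded in mitochondria, 11 were lower and 2 higher in the BRD9 KO step and 8 lower and 2 higher in the LacZ step, and 6 had a lower difference. The 2 higher members were MT-ND1 and MT-ND2 in both steps, subunits of complex I named after their values were seen. MT-CO1, a subunit of cytochrome oxidase, stood at 13328 and 13395 CPM on day 1 and 9266 and 9522 on day 5 in the deleted cells, against 12924 and 12865 and then 9924 and 10071.

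Of 55 S phase genes tested, 33 were higher in the BRD9 KO step and 47 in the LacZ step, 1 was lower in the BRD9 KO step, and 5 had a lower difference, with medians of 0.24, 0.31 and -0.09. Lower differences numbered 2 to 5 when a library was left out, 3 by DESeq2 and 0 by limma on log2(TPM + 1). MCM5, a subunit of the replicative helicase, went from 95.7 and 93.1 to 135 and 132 CPM and from 94.6 and 96.3 to 132 and 135, so that the 2 cultures overlapped on both days. TYMS, thymidylate synthase, was the lower member: it went from 299.8 and 308 to 259.6 and 262 CPM in BRD9 KO cells and stayed at 303 and 304 and at 299 and 303 in LacZ cells. The difference for TYMS was -0.21 (SE 0.04, edgeR adjusted p = 0.000682) and was also called from day 2 to day 3 (-0.19, edgeR adjusted p = 0.0114).

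Of 50 tested genes of G2/M and mitosis, 21 were higher and 3 lower in the BRD9 KO step, against 38 and 1 in the LacZ step. The difference was lower for 11 and higher for 0, and its median was -0.14, with step medians of 0.11 and 0.27. For 8 of the 11 the LacZ step alone was called. The count of 11 fell to 6 without replicate 1 of BRD9 KO day 1 or replicate 1 of LacZ day 5, to 7 without replicate 1 of LacZ day 1 or replicate 2 of LacZ day 5, to 5 by DESeq2 and to 2 by limma on log2(TPM + 1). BUB1B, a kinase of the spindle checkpoint, stood at 85.2 and 87.7 CPM on day 1 and 79.1 and 87.6 on day 5 in the deleted cells, and at 86.4 and 81.4 and then 103 and 105 in LacZ cells. The levels of the deleted cells overlapped between the days, and its difference was -0.36 (SE 0.07, edgeR adjusted p = 0.00153). TOP2A, the topoisomerase that untangles chromosomes, fell from 539 and 532 to 440.4 and 445 CPM, while LacZ cells stood at 506 and 516 and at 512 and 529.9. Its difference was -0.30 (SE 0.03, edgeR adjusted p = 2.42e-06), and from day 2 to day 3 -0.21 (edgeR adjusted p = 0.00117). CENPF, a protein of the kinetochore, had a difference of -0.23 (edgeR adjusted p = 0.00112). ECT2, which directs cytokinesis, rose in both cultures by 0.40 and 0.53, and MKI67, the proliferation marker Ki-67, named after its values were seen, by 0.25 and 0.32. Neither difference was called, but both genes rose less in the deleted cells, so they are not shown to have moved alike.

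The cell cycle homology region, TTTGAA, is the element through which mitotic promoters are held silent in resting cells. These letters were present on either strand in 29 of 43 promoters of the list (67.4%), beside 9.18% of the tested protein-coding genes with a promoter and 15.4% of all promoters in the table. Among the members with a lower difference 8 of 10 promoters held it (80%). Windows of 30 bases with the letters in capitals are given for genes on both sides of that call, BUB1B, CENPF and TOP2A with a lower difference and ECT2 without. They lie at chr15:40161034-40161063 (plus strand), chr1:214603215-214603244 (plus strand), chr17:40418073-40418102 (minus strand) and chr3:172750599-172750628 (plus strand) of GRCh38.p14, from RefSeq.
BUB1B: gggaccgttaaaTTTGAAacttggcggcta
CENPF: ccggtggcggctgcgggcagTTTGAAttag
TOP2A: cgagtggtgcctTTTGAAgcctctctagtc
ECT2: tcgttgggcttaTTTGAAacacacgcacaa
These windows were picked because they hold the letters, so their presence on both sides of the call was fixed. They do not show binding, and the uncalled ECT2 difference is not shown to be absent.

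Of 24 cyclin-dependent kinase inhibitors and G1 genes tested, 5 were higher and 9 lower in the BRD9 KO step and 2 higher and 10 lower in the LacZ step, and the difference was higher for 5 and lower for 0. Of 32 p53 targets, 18 were lower and 3 higher in the BRD9 KO step and 16 lower and 1 higher in the LacZ step, with a difference higher for 3 and lower for 1. CDKN1A, the p21 inhibitor, went from 206 and 201 to 178 and 181 CPM against 200.3 and 196 to 157 and 158. It fell less in the deleted cells by 0.15 (edgeR adjusted p = 0.0278), a difference that missed the threshold without any of 5 of the 8 libraries (adjusted p of 0.0689 to 0.15). PERP, a desmosomal p53 target, rose from 641 and 664 to 824 and 840.3 CPM in the deleted cells and stayed at 637 and 645 and at 639.6 and 648 in LacZ cells, a difference of 0.34 (SE 0.03, edgeR adjusted p = 1.65e-07). CCND1, cyclin D1, stayed at 452 and 452 and at 447 and 447 CPM in the deleted cells and fell from 436 and 444 to 379 and 388 in LacZ cells. Among 45 apoptosis regulators 11 were higher and 8 lower in the BRD9 KO step, against 8 and 9 in the LacZ step, with 3 differences higher and 2 lower.

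Of 36 immediate-early and AP-1 genes tested, 16 were higher and 10 lower in the BRD9 KO step against 7 and 15 in the LacZ step, and the difference was higher for 10 and lower for 0, with medians of 0.10, -0.06 and 0.21, and for 6 by limma on log2(TPM + 1). The list holds the fast-acting transcription factors and the inhibitors of ERK signalling, and these took different courses. FOS, an AP-1 subunit, fell from 75.2 and 71.5 to 33.7 and 34.2 CPM against 94.1 and 87.5 to 37.4 and 33.8, a shared step present on day 2. EGR1, a zinc finger factor, fell from 46.3 and 50.3 to 22.7 and 24.3 CPM against 54.5 and 52.7 to 16.2 and 16.3, and its step differed by 0.68 (SE 0.10, edgeR adjusted p = 0.000165). SPRY4, which inhibits receptor tyrosine kinase signalling, rose from 42.4 and 46.3 to 89.1 and 86.7 CPM against 44.8 and 45.5 to 59.4 and 61.2. DUSP6, a phosphatase of ERK, rose from 169.5 and 159 to 219.9 and 212 CPM and stayed at 167 and 159.8 and at 162 and 159 in LacZ cells. DUSP6 differed by 0.42 (SE 0.05, edgeR adjusted p = 1.47e-05) and SPRY4 by 0.56 (SE 0.07, edgeR adjusted p = 2.21e-05). KLF6, a growth-restraining zinc finger factor, behaved like DUSP6, with a step of 0.54 against -0.05.

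Among 32 YAP and serum response genes 16 were higher and 5 lower in the BRD9 KO step and 16 and 6 in the LacZ step, with a difference higher for 9 and lower for 4. CYR61, a secreted matrix protein and YAP target, rose from 107 and 102 to 132 and 130.4 CPM in the deleted cells and fell from 116 and 121 to 91.8 and 91.6 in LacZ cells. The steps were of opposite sign, 0.34 and -0.38, and the difference was 0.71 (SE 0.07, edgeR adjusted p = 1.12e-06). AXL, a receptor tyrosine kinase in the same list, moved the other way: it stood at 51.4 and 49.4 and at 46.1 and 47.2 CPM in the deleted cells and rose from 49.3 and 51.3 to 70.8 and 65.7 in LacZ cells, a difference of -0.54 (SE 0.07, edgeR adjusted p = 7.68e-05). ACTB, cytoplasmic actin, rose alike in both, by 0.26 and 0.24. The list thus held members of both directions.

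Of 28 NF-kB and inflammatory genes tested, 13 were higher and 3 lower in the BRD9 KO step against 4 and 5 in the LacZ step, and the difference was higher for 7 and lower for 1, with medians of 0.17, -0.07 and 0.26. Higher differences numbered 4 without replicate 2 of BRD9 KO day 1, 4 by DESeq2 and 2 by limma on log2(TPM + 1). NFKB2, a precursor of the noncanonical NF-kB pathway, stood at 91.1 and 99.2 CPM on day 1, 227 and 221 on day 3 and 156 and 151 on day 5, and in LacZ cells at 99.0 and 97.1, 189 and 181, and 116 and 114. Both cultures peaked on day 3, and the difference of the day 5 step was 0.45 (SE 0.06, edgeR adjusted p = 5.57e-05). RELB, its partner, rose from 31.1 and 31.7 to 55.3 and 51.7 CPM against 32.3 and 33.1 to 38.2 and 35.9. STAT3, a transcription factor of cytokine signalling, rose by 0.19 in the deleted cells and fell by 0.12 in LacZ cells. Of 38 interferon-stimulated and sensing genes, 5 had a higher difference and 0 a lower, and 13 were lower in the LacZ step (5 to 8 when a library was left out) against 6 in the BRD9 KO step. DDX58, the RNA sensor RIG-I, rose from 30.2 and 33.0 to 41.6 and 44.5 CPM and stood at 31.4 and 29.6 and at 26.6 and 27.6 in LacZ cells, a difference of 0.61 (SE 0.10, edgeR adjusted p = 0.00054). The blood cell markers summed to 71 to 143 CPM over the 16 libraries, with 7 of 15 at 0 in all of them.

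The simple epithelial keratins rose in both cultures and more so in the deleted cells. KRT8 rose from 2920.2 and 3043 to 5341 and 5272 CPM in the deleted cells and from 2926 and 2966 to 3656 and 3686 in LacZ cells. Its partner KRT18, with which it forms filaments, rose from 2226 and 2275 to 3884 and 3858 CPM against 2165 and 2196 to 2663 and 2686. The levels on day 1 were alike, and those of day 5 did not overlap. The differences were 0.51 for KRT8 (SE 0.02, edgeR adjusted p = 1.43e-11) and 0.49 for KRT18 (SE 0.02, edgeR adjusted p = 1.02e-11), and they were called from day 2 to day 3 too, at 0.22 and 0.21. Other members did not follow as a block: of 14 tested keratin and epithelial genes 6 were higher and 3 lower in the BRD9 KO step, and 3 had a higher and 1 a lower difference. The summed list rose from 7659 and 7782 to 11459 and 11596 CPM in the deleted cells and went from 7640 and 7658 to 8784 and 8844 in LacZ cells, while EPCAM and CDH1 stayed at 0 to 6 counts.

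Of 38 collagens, matrix genes and proteases tested, 9 were higher and 18 lower in the BRD9 KO step and 4 higher and 22 lower in the LacZ step, with 8 differences higher and 7 lower. COL6A1, a chain of the beaded-filament collagen VI, rose from 153 and 153 to 313 and 295 CPM against 144 and 145 to 165 and 159, a difference of 0.82 (SE 0.05, edgeR adjusted p = 2.48e-09) that was called from day 2 to day 3 as well (0.30, edgeR adjusted p = 0.00359). COL6A2, the neighbouring chain, rose from 48.8 and 50.7 to 63.8 and 61.7 CPM and fell from 49.1 and 46.8 to 41.7 and 40.1 in LacZ cells. Both collagen VI chains thus ended higher in the deleted cells. Fibrillar collagens went both ways. COL5A2, a chain of the fibrillar collagen V, rose from 419 and 406 to 503 and 509 CPM in the deleted cells and fell from 407 and 404 to 372 and 381 in LacZ cells, a difference of 0.40 (SE 0.03, edgeR adjusted p = 2.16e-07). The LacZ fall of COL5A2 missed the threshold without replicate 1 of LacZ day 5 (-0.09, edgeR adjusted p = 0.0569). COL1A1, a chain of collagen I, fell from 496 and 490 to 223 and 218 CPM against 523 and 504 to 321 and 318, a difference of -0.48 (SE 0.04, edgeR adjusted p = 2.04e-07). COL3A1, another fibrillar chain, fell from 715 and 702 to 463 and 456 CPM and from 745 and 745 to 479 and 474, the same step in both cultures (-0.62 and -0.64). GPC3, a heparan sulfate proteoglycan of embryonic and tumor cells, fell by 0.89 (SE 0.03) against 0.37, with a difference of -0.52 (edgeR adjusted p = 9.14e-08).

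Of 37 HOX genes and cofactors tested, 16 were lower and 2 higher in the BRD9 KO step against 12 and 0 in the LacZ step, and 5 had a lower and 1 a higher difference, with medians of -0.32, -0.29 and -0.11. The 5 lower differences became 2 to 4 when a library was left out. MEIS2, a cofactor of HOX proteins, fell from 128 and 123 to 66.5 and 66.0 CPM against 135 and 128 to 116 and 113, a difference of -0.72 (SE 0.06, edgeR adjusted p = 6.72e-08). HOXC8, which patterns the trunk, fell from 32.3 and 36.8 to 17.3 and 16.4 CPM against 30.6 and 35.6 to 26.3 and 25.2, a difference of -0.69 (edgeR adjusted p = 0.0014). The LacZ step of HOXC8 missed the threshold without replicate 2 of LacZ day 1 (-0.25, edgeR adjusted p = 0.0858). In the axon guidance list, NRP1, the semaphorin and VEGF receptor, fell from 49.3 and 50.3 to 22.4 and 24.6 CPM against 51.1 and 54.8 to 39.7 and 43.7. Over that list of 32 genes 7 were higher and 11 lower in the BRD9 KO step, against 2 and 8. Of 19 kidney development genes 2 were higher and 4 lower in the BRD9 KO step and 0 and 5 in the LacZ step. Among 54 genes of Wnt, TGF-beta, BMP, Notch and FGF signalling, 14 were higher and 13 lower in the BRD9 KO step against 5 and 11, and 8 had a higher and 2 a lower difference, the former 4 to 6 when a library was left out. TGFB1, the founding TGF-beta ligand, rose from 33.6 and 32.9 to 54.9 and 52.7 CPM and stood at 29.5 and 34.7 and at 35.3 and 33.9 in LacZ cells, while FGFR3, a receptor for FGF ligands, rose from 26.0 and 24.3 to 44.8 and 43.4 against 21.2 and 22.0 to 22.7 and 22.2. Their differences were 0.59 and 0.77 (edgeR adjusted p = 0.000929 and 0.00121).

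Of 25 cholesterol synthesis genes 12 were lower and 1 higher in the BRD9 KO step, and 12 and 1 in the LacZ step, with a lower difference for 4, which became 2 to 4 when a library was left out. MSMO1, an enzyme that removes methyl groups from sterols, fell by 0.58 against 0.28. Of 21 genes of fatty acid synthesis and uptake 8 were lower and 2 higher in the BRD9 KO step and 8 and 1 in the LacZ step, with 3 differences lower. SCD, which desaturates fatty acids, fell to day 3, from 2151 and 2137 to 1219.5 and 1233 CPM, and stood at 1729 and 1767 on day 5, while LacZ cells went from 2136 and 2113 through 1356 and 1368 to 2004 and 2017. Both cultures therefore shared the dip of SCD on day 3, and the return was smaller in the deleted cells (difference -0.21, edgeR adjusted p = 3.45e-07).

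The glucose transporter genes SLC2A1 and SLC2A3 moved in opposite directions in the deleted cells. SLC2A3 stood at far lower CPM, and it rose in LacZ cells too. SLC2A1 fell from 1017 and 1040.1 to 796 and 778 CPM while it stood at 1051 and 1056 and at 1074 and 1066 in LacZ cells, a difference of -0.41 (SE 0.02, edgeR adjusted p = 8.69e-10), and SLC2A3 rose as described. LDHA, which makes lactate, rose alike in both cultures, by 0.45 and 0.39. Of 37 hypoxia and glycolysis genes 14 were higher and 10 lower in the BRD9 KO step against 8 and 10, with 5 differences higher (1 to 5 when a library was left out) and 2 lower. DDIT4, a stress-induced inhibitor of mTORC1, fell from 177 and 172 to 75.3 and 81.4 CPM against 182 and 180.2 to 123 and 125, a difference of -0.60 (SE 0.05, edgeR adjusted p = 5.48e-07). SLC7A5, the large neutral amino acid transporter, rose from 123 and 114 to 225 and 213 CPM against 125 and 132 to 193 and 188.

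A step against the LacZ direction was called for 73 genes, of which 46 were higher and 27 lower in the deleted cells (0.486% of those tested). GSG1, a germ cell gene, fell from 61.3 and 57.4 to 29.6 and 28.3 CPM in the deleted cells and rose from 55.3 and 56.3 to 74.1 and 69.5 in LacZ cells, a difference of -1.40 (SE 0.08, edgeR adjusted p = 2.31e-09). SEMA3D, a secreted guidance cue, fell from 116 and 119.8 to 85.0 and 85.7 CPM and stood at 119 and 116 and at 133 and 122 in LacZ cells. The LacZ rise of SEMA3D, 0.12, was lost without replicate 1 of LacZ day 1, replicate 2 of LacZ day 1 or replicate 1 of LacZ day 5 (edgeR adjusted p = 0.0962, 0.213 and 0.529), and its difference of -0.59 was not. Among genes that only LacZ cells changed, MCAM, a cell adhesion molecule, fell from 18.1 and 19.1 to 12.9 and 15.9 CPM in LacZ cells and stood at 17.2 and 18.9 and at 20.3 and 20.0 in the deleted cells (difference 0.53, edgeR adjusted p = 0.0233). The MCAM difference missed the threshold in 5 of the 8 fits that left out a library (edgeR adjusted p of 0.0601 to 0.16), and its LacZ fall did so without replicate 2 of LacZ day 1 or replicate 1 of LacZ day 5 (edgeR adjusted p = 0.0676 and 0.197).

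Of 24 SWI/SNF subunits tested 5 were higher and 6 lower in the BRD9 KO step against 4 and 4 in the LacZ step, and 2 had a lower difference, BRD7 and SMARCE1. The call for SMARCE1, another subunit (difference -0.18, edgeR adjusted p = 0.0448), was lost in 7 of the 8 fits that left out a library (edgeR adjusted p of 0.0548 to 0.203) and held without replicate 1 of LacZ day 5. The call for BRD7, the bromodomain subunit of another SWI/SNF form, was lost without replicate 2 of BRD9 KO day 1, replicate 1 of LacZ day 1 or replicate 1 of LacZ day 5 (difference -0.26, -0.30 and -0.30, edgeR adjusted p = 0.116, 0.0568 and 0.062). The list of genes around BRD9 on chromosome 5 had 17 tested members and included BRD9 itself. In the BRD9 KO step 5 were higher, BRD9 among them, and 0 lower, beside 17.5% of all genes in each direction. A higher difference was called for 2. TRIP13, a checkpoint ATPase whose gene neighbours BRD9, rose from 48.8 and 48.8 to 87.0 and 87.4 CPM in the deleted cells and from 63.1 and 64.7 to 87.2 and 87.0 in LacZ cells. The cultures differed on day 1 and met on day 5, with a difference of the steps of 0.39 for TRIP13 (SE 0.07, edgeR adjusted p = 0.000784).

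Of the remaining lists, 34 endoplasmic reticulum and unfolded protein genes had 3 higher and 13 lower in the BRD9 KO step against 8 and 5 in the LacZ step, with 1 difference higher and 6 lower, and the 13 became 8 to 11 when a library was left out. Among 41 heat shock and proteasome genes 15 were higher and 6 lower against 15 and 1. The 62 nuclear genes of oxidative phosphorylation had 10 higher and 14 lower against 9 and 3. Of 42 polycomb and silencing genes 6 were higher and 8 lower against 7 and 5, with 1 difference called. BMI1, a polycomb subunit of that list, fell alike in both cultures, by 0.70 and 0.63.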

How the data were processed

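Total RNA of G401 cells was extracted with TRIzol, and libraries were made with a NEBNext Ultra kit, which does not mark strand. Per the labels and the methods, the authors aligned reads to hg19 with STAR under ENCODE options and quantified genes with RSEM, and the submitters' processing notes name DESeq2; versions are not given in the sources used here. The authors deposited, for each library, an expected count (RSEM's estimate of reads per gene, not whole for 34.6 to 36.6% of values above 0) and TPM, which is scaled by length and library total. Reads shared by paralogs are divided among them by estimation.

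Expected counts were rounded, which moved no library total by more than 90.1, and fitted for all 16 libraries with a mean per group by edgeR 4.0.16 (TMM, filterByExpr with a minimum count of 10 and total of 15, quasi-likelihood test) in R 4.3.3. This kept 15027 of 57820 genes and left 8 residual degrees of freedom, with a biological coefficient of variation of 0.023. The contrasts were day 5 minus day 1 in BRD9 KO cells, the same in LacZ cells, their difference, the intervals between days, the difference from day 2 to day 3, and an F-test over days. P-values were adjusted by Benjamini-Hochberg over all genes tested. The pipeline was tested on simulated data.

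Genes were named by a rule. It took BRD9; the 12 highest and 12 lowest changes called in the BRD9 KO step, given an average log2 CPM no lower than 1 and both libraries of day 5 beyond both of day 1; by the same filter the 12 highest and lowest differences called also in that step, and 6 each way called in the LacZ step but not the BRD9 KO step. From each of 40 gene lists it took up to 4 called members per direction with the smallest p in the step, up to 3 in the difference and the most abundant member, and it took 8 shared genes. A subset of the genes so named is described, picked with their values known, as are the genes given as checks of identity. The members and lists were chosen with earlier results of these data known. Alternatives were DESeq2 1.42.0, its size factors, other filters, limma 3.58.1 on log2(TPM + 1), the replicate number as a block, thinning, and leaving out each library. A result of the naming rule is not reported here.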

Additional observations from a re-analysis of the deposited data

Results flagged for a closer look

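For 1070 genes the step from day 1 to day 5 differed between BRD9 KO and LacZ cells by edgeR's test of the difference itself (adjusted p under 0.05), among them the genes named here; each value is the BRD9 KO step minus the LacZ step on the log2 scale. In metabolism, lipid and stress genes the differences were 0.93 for SLC2A3, -0.41 for SLC2A1, 0.32 for SLC7A5, -0.60 for DDIT4, 1.22 for SPHK1, -0.30 for MSMO1, -0.21 for SCD, 0.51 for HMOX1, 0.30 for SQSTM1, 0.43 for CRYAB, 0.18 for ATF4 and 0.48 for CEBPB. In cilia genes and secreted proteins they were -1.34 for CDC20B, -1.19 for FOXJ1, -1.97 for TTC30A, -1.72 for CCL25, -1.01 for THBS1, -0.88 for LGI1 and 1.14 for FSTL3. The germ cell gene GSG1 had -1.40. The pregnancy-specific glycoproteins named had -1.42 for PSG9, -1.58 for PSG1 and -0.46 for PSG4.

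Cell cycle and ribosomal genes had smaller differences, -0.36 for BUB1B, -0.23 for CENPF, -0.30 for TOP2A, -0.21 for TYMS, 0.39 for TRIP13, 0.15 for CDKN1A, 0.34 for PERP, 0.18 for CCND1, -0.16 for RPS19 and -0.14 for MT-CO1. Signalling and inflammatory genes had 0.68 for EGR1, 0.56 for SPRY4, 0.42 for DUSP6, 0.59 for KLF6, 0.71 for CYR61, -0.54 for AXL, 0.45 for NFKB2, 0.58 for RELB, 0.31 for STAT3, 0.61 for DDX58, 1.59 for BATF3, 1.02 for IL4R, 0.59 for TGFB1, 0.77 for FGFR3 and -1.35 for RGS5.

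Structural and matrix genes had 0.51 for KRT8, 0.49 for KRT18, 0.79 for TUBB2A, 1.12 for INA, 0.82 for COL6A1, 0.55 for COL6A2, 0.40 for COL5A2, -0.48 for COL1A1, -0.52 for GPC3, 1.29 for BCAN, 0.53 for MCAM and -1.72 for VIT. Developmental and chromatin genes had -0.69 for HOXC8, -0.72 for MEIS2, -0.72 for NRP1, -0.59 for SEMA3D, -0.31 for HMGA2, -0.31 for BRD7, -0.18 for SMARCE1 and 0.29 for HIST1H2BK.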

How the results depend on the processing

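DESeq2 called 2393 genes in the LacZ step, 633 in the difference of steps, 2990 from day 2 to day 3 and 1894 from day 3 to day 5 of BRD9 KO cells. With limma on log2(TPM + 1) the calls were 3396 in the BRD9 KO step, 1811 in the LacZ step, 315 in the difference and 5171 over the 4 days. A threshold of at least 1 on the absolute log2 fold change left 384, 135 and 75. Leaving out a library gave 3723 to 4329 in the BRD9 KO step, 2572 to 2806 in the LacZ step, 752 to 852 in the difference and 7229 to 7628 over the 4 days. DESeq2 size factors, a stricter filter, no filter, thinning to the smallest library and fitting only the libraries compared kept every count within 1.5 times. Replicate numbers were not taken as pairs, since the labels tie a number to no shared batch and the residual correlations of same-numbered libraries had both signs, from -0.205 to 0.242 over pairs of groups (0.098 between days 1 and 5 of BRD9 KO, -0.0011 of LacZ cells and 0.179 between the cultures on day 5). With the replicate block the calls were 5261 in the BRD9 KO step, 3816 in the LacZ step and 1052 in the difference, and of the named genes' calls it ended that of SMARCE1 in the difference alone. The causes of these shifts were not tested.

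The named genes kept their direction wherever a call was made. Of their differences, limma on log2(TPM + 1) lost 24 calls, those of HOXC8, MSMO1, SLC2A3, FGFR3, TRIP13, SMARCE1, NRP1, SLC7A5, RELB, TGFB1, RPS19, DDX58, COL1A1, CCND1, CENPF, CDKN1A, BCAN, THBS1, CDC20B, BRD7, CEBPB, TYMS, TTC30A and MCAM. DESeq2 lost 4 of them, SMARCE1, CDKN1A, ATF4 and MCAM, and using no filter lost 2, SMARCE1 and INA. WNT4 passed with TPM and with no filter. In the LacZ step limma lost 12 calls. They were those of HOXC8, SCD, NRP1, CENPF, MEIS2, THBS1, COL6A2, SEMA3D, STAT3, PSG4, MCAM and COL5A2. DESeq2 lost SEMA3D and MCAM in that step, and using no filter lost SEMA3D. In the BRD9 KO step limma lost 3 calls, SMARCE1, BRD7 and COL7A1. DESeq2 lost SMARCE1 and BRD7 in that step, and using no filter lost SMARCE1. Each group has 2 libraries. Data were simulated from each gene's mean over all libraries and the library totals. For the BRD9 KO step edgeR found 62 of 100 genes changed by 0.5 and 90 of 100 changed by 1 (log2). For the difference it found 38 and 78. The simulated spread was set above the fitted biological coefficient of variation of 0.023, and apart from those changes all groups had the same means. These counts are therefore not the detection rates of this experiment.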

Other observations

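A further 4 genes, CRYAB, HMGA2, HMOX1 and SQSTM1, had steps that differed between the cultures. CRYAB, a small heat shock protein that also stabilises filaments, went from 442 and 438 CPM to 604 and 609 in the deleted cells, and stood at 425 and 437 and then 446 and 436 in LacZ cells. Its difference of steps was 0.43 (log2, SE 0.03, edgeR adjusted p = 2.34e-08), and it was called from day 2 to day 3 as well (0.21, edgeR adjusted p = 0.00209). HMGA2, an architectural chromatin protein of embryonic and tumor cells, fell from 1705 and 1705 to 1104 and 1128 CPM against 1718 and 1720.3 to 1391 and 1392. HMOX1, which degrades heme under oxidative stress, rose from 25.1 and 26.9 to 55.3 and 57.3 CPM against 25.4 and 23.7 to 37.6 and 36.8. SQSTM1, a receptor for selective autophagy that the NRF2 factor induces, rose by 0.40 in the deleted cells and by 0.10 in LacZ cells, where the call was lost without replicate 2 of LacZ day 5 (0.08, edgeR adjusted p = 0.0547). No library of the deleted cells on day 5 overlapped with a LacZ library of day 5 for these 4 genes. Over the 24 NRF2 and metal response genes tested, 7 were higher and 5 lower in the BRD9 KO step (17.5% of all genes in each direction) and 7 and 6 in the LacZ step, so HMOX1 did not move with its whole list.

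Replication-dependent histone genes, whose transcripts mostly lack the poly(A) tail that many library methods select, had a median BRD9 KO step of -0.03 and a median LacZ step of -0.26 over 29 tested genes, but few members were called. In the BRD9 KO step 3 were higher and 4 lower, in the LacZ step 1 was higher and 5 lower, and 2 had a higher difference. HIST1H2BK, an H2B gene, stood at 88.5 and 92.9 and at 87.7 and 90.2 CPM in the deleted cells and fell from 92.9 and 92.9 to 75.1 and 73.6 in LacZ cells, a difference of 0.29 (SE 0.07, edgeR adjusted p = 0.0103). That difference missed the threshold without replicate 2 of BRD9 KO day 5 (0.27, edgeR adjusted p = 0.0564) and without replicate 2 of LacZ day 5 (0.28, edgeR adjusted p = 0.0514). How far selection for poly(A) tails enters these values was not tested.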
